A study of Mus musculus with 6 samples.

Results

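Sp5 and 9 other genes known as direct targets of Wnt/beta-catenin signalling were followed in mouse embryonic stem cells in which the chromatin remodeller Chd8 was reduced by a short hairpin RNA. The members were Sp5, Axin2, Lef1, Tcf7, Ccnd1, Myc, Notum, Tnfrsf19, Nkd1 and Lgr5, and every probe whose old or current gene symbol was a member was taken. This gave 20 of the 45281 probes of an Illumina bead array, for 9 of the 10 genes. Tcf7 had no probe under its name in the annotation used here and was not analysed here. The cells grew with serum and leukemia inhibitory factor on embryonic fibroblasts that mitomycin C had stopped from dividing, and pHYPER hairpin plasmids were brought in by electroporation. Puromycin was given from 24 h after transfection for a further 48 h, after which the cells were collected. Each group, control and shChd8 (transfected with the hairpin against Chd8), has 3 arrays. Both groups went through the same feeder culture, electroporation and selection. What the control plasmid carried, the mouse strain of the cells and whether the arrays came from separate cultures are not given in the sources used here, so the p-values speak only to the variation among these 6 arrays, which may be technical. The labels name 1 hairpin target and no rescue, and each group took adjoining positions of 1 slide, so that slide position cannot be told apart from group.

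In the canonical Wnt pathway, a Wnt ligand binds Frizzled and Lrp5 or Lrp6 at the cell surface, the complex of Axin, Apc and Gsk3 stops marking beta-catenin for destruction, and beta-catenin enters the nucleus. There it binds transcription factors of the TCF/LEF family at target genes, several of which encode inhibitors that feed back on the pathway. In mouse embryonic stem cells this signalling favours self-renewal, and it also takes part in the exit toward primitive streak and mesoderm. CHD8 has been reported to bind beta-catenin and to hold back its target genes, which is the question that a comparison of these genes between shChd8 and control cells addresses.

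Chd8 itself was lower in shChd8 cells. The detected probe for the transcript (ILMN_2703082) read 9.90, 9.97 and 10.02 in control and 8.71, 8.64 and 8.36 in shChd8 replicates 1, 2 and 3, in normalized log2 intensity, and the groups did not overlap. The log2 change was -1.39 (SE 0.15, limma adjusted p = 0.00907). The other Chd8 probe was detected on no array.

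Mean intensity before normalization lay between 389.9 and 413.1 on control arrays and between 419.5 and 497.5 on shChd8 arrays, and 16482 to 17440 probes were detected per array (detection p under 0.01). Of 9711 genes tested, limma called 502 at an adjusted p under 0.05, which is 5.17%, with 206 higher (2.12%) and 296 lower (3.05%). The embryonic stem cell markers Pou5f1, Nanog and Sox2 were detected on all 6 arrays, with log2 changes of 0.02, -0.29 and -0.11 on their probes with the lowest p. Of the 12 pluripotency markers tested 0 were called by limma, against 1 at an unadjusted p under 0.05, beside 32.4% of all genes at that p. That marker, named after its values were seen, was Lin28a, an RNA-binding protein of stem cells. On the probe with the lowest p of its 3 tested probes, the log2 change was -0.95 (SE 0.28, adjusted p = 0.0814). All shChd8 arrays lay below all control arrays on it, as for 2001 of the 9711 genes tested. Of the 12 markers, 9 had a log2 change below 0, with a median of -0.11. Markers of fibroblasts, the feeder cells of the cultures, were also present, and they are called feeder markers below. Whether feeder cells or the stem cells gave this signal was not tested. Of 28 listed markers, 23 were tested, 22 had a log2 change above 0 and 2 rose (Fbln2 and Tagln), with a median of 1.02 against -0.02 for all genes tested. The Fbln2 probe with the lowest p was detected on no control array. Its change of 0.99 lay below that median, so setting it to its bound cannot move the median. Another Fbln2 probe, detected on all 6 arrays, was also called, with a log2 change of 1.13 (SE 0.22, limma adjusted p = 0.0376). The remaining Fbln2 probe had 1.35 (SE 0.37, adjusted p = 0.0714). Summed on the linear scale, the tested markers reached 21320, 20790 and 11480 on control arrays 1, 2 and 3 but 53180, 38190 and 24540 on shChd8 arrays 1, 2 and 3, so the groups did not overlap. Col1a1, Twist1 and Prrx1 were detected on all 6 arrays and Pdgfra likewise, whereas Postn and Col5a2 were detected on no array, Col3a1 on at most 1, and Col6a3 and Fbn1 had no probe.

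Sp5, a zinc-finger transcription factor of the Sp family that is induced by Wnt signals and can itself repress Wnt target genes, rose in shChd8 cells. It was the 1 called gene among the 6 members that could be tested, beside 5.17% of all genes. Sp5 gives the list its name and was chosen with earlier results of these data known, so its call is not independent evidence. In normalized log2 intensity the single probe (ILMN_2641201) read 6.38, 6.92 and 6.11 in control replicates 1, 2 and 3 and 7.97, 7.41 and 7.75 in shChd8 replicates 1, 2 and 3. In the deposited non-normalized table the same arrays stood at an intensity of 163, 183 and 150.2 for control and 344, 278 and 360.3 for shChd8 cells, with a detection p of 0 on all arrays. All shChd8 arrays lay above all control arrays on both scales, control replicate 2 was the highest control and shChd8 replicate 2 the lowest shChd8 array. The means were 6.47 ± 0.41 (SD, n = 3) and 7.71 ± 0.28 (SD, n = 3), and the log2 change was 1.24 (SE 0.24, 95% interval 0.69 to 1.78, limma adjusted p = 0.0372), which is a 2.36-fold rise. The exact two-sided permutation test over arrays gave p = 0.1, which is the lowest possible p with 3 arrays a group. The call depended on the arrays used: the adjusted p was 0.0225 without control replicate 2 and between 0.0572 and 0.134 without each of the other 5 arrays in turn, while the log2 change lay between 1.06 and 1.46.

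**Figure D1:**
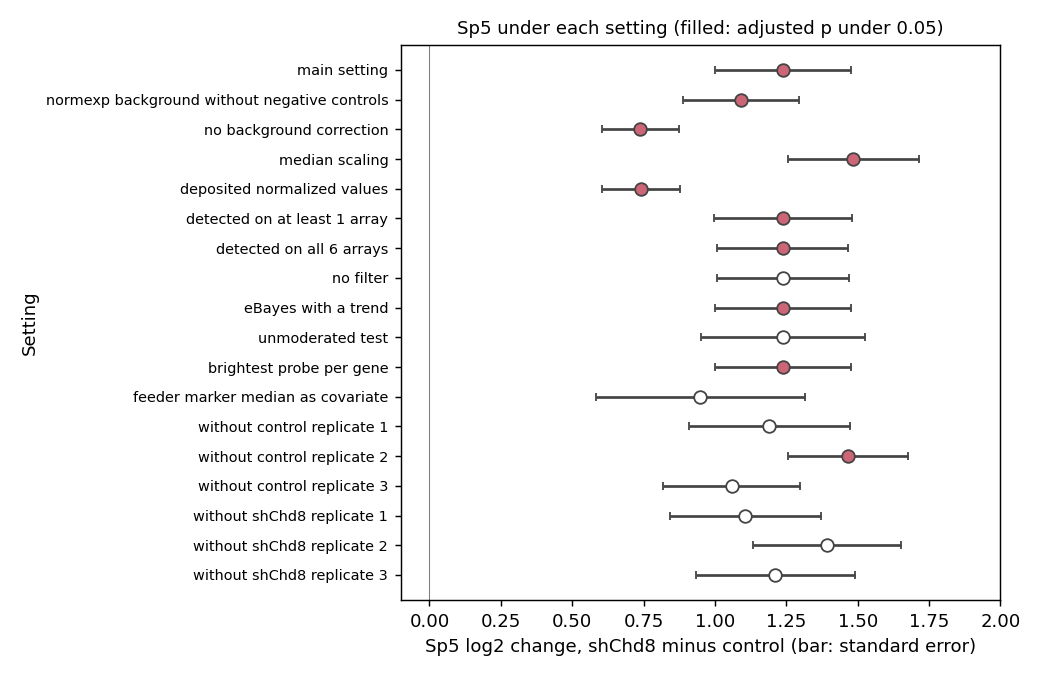
Log2 change of Sp5 (shChd8 minus control) with its standard error under the main setting and each of the 17 others, with filled points where the limma adjusted p was under 0.05. All values lie between 0.74 and 1.49, and the points are filled in the main setting and in 9 others. Settings that alter only the filter, the test or the probe per gene repeat the main value.

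The 250 bases before the Sp5 start are shown because Sp5 was the called member and because letters of the TCF/LEF motif lie in them. A stretch of 250 bases from Axin2 is shown beside it because Axin2 was detected on all arrays with a change close to 0. The sequences are from RefSeq (build GRCm38.p6), 5′ to 3′ on the strand of the gene, which is the plus strand for both, and capitals mark CTTTGAT or CTTTGTT on either strand. The Sp5 stretch is chr2:70474673-70474922 and the Axin2 stretch is chr11:108920099-108920348. The Sp5 stretch ends directly before the first base of the gene (70474923). The Axin2 stretch lies within the gene, which begins at 108917828, so it precedes an internal start and does not match the Sp5 stretch in position.
Sp5: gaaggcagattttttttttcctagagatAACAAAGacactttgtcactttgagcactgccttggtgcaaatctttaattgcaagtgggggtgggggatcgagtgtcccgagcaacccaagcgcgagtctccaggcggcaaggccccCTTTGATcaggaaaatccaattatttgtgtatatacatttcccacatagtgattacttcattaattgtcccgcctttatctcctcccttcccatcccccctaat
Axin2: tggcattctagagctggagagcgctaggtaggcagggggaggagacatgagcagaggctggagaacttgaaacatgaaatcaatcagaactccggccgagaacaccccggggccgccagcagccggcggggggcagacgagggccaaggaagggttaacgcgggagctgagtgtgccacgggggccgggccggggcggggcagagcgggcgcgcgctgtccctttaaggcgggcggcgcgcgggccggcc

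In the Sp5 stretch, CTTTGAT starts 104 bases before the start on the strand of the gene, and CTTTGTT, read as AACAAAG, starts 222 bases before it on the opposite strand. The 2 motifs differ in 1 letter and do not overlap here. Over the 32851 RefSeq stretches of the same length, 3.21% held CTTTGAT, 5.03% held CTTTGTT and 0.174% held both. Stretches were at hand for 6 of the 10 members (Sp5, Axin2, Lef1, Tcf7, Nkd1 and Tnfrsf19), with 11 stretches in all since a gene can have several starts. Besides Sp5, CTTTGAT was in 1 of the 2 Tnfrsf19 stretches, and the stretches of Axin2, Lef1, Tcf7 and Nkd1 held neither. A match of letters is a description and says nothing about binding in these cells, and the absence of these letters from this window says nothing about binding elsewhere.

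**Figure D2:**
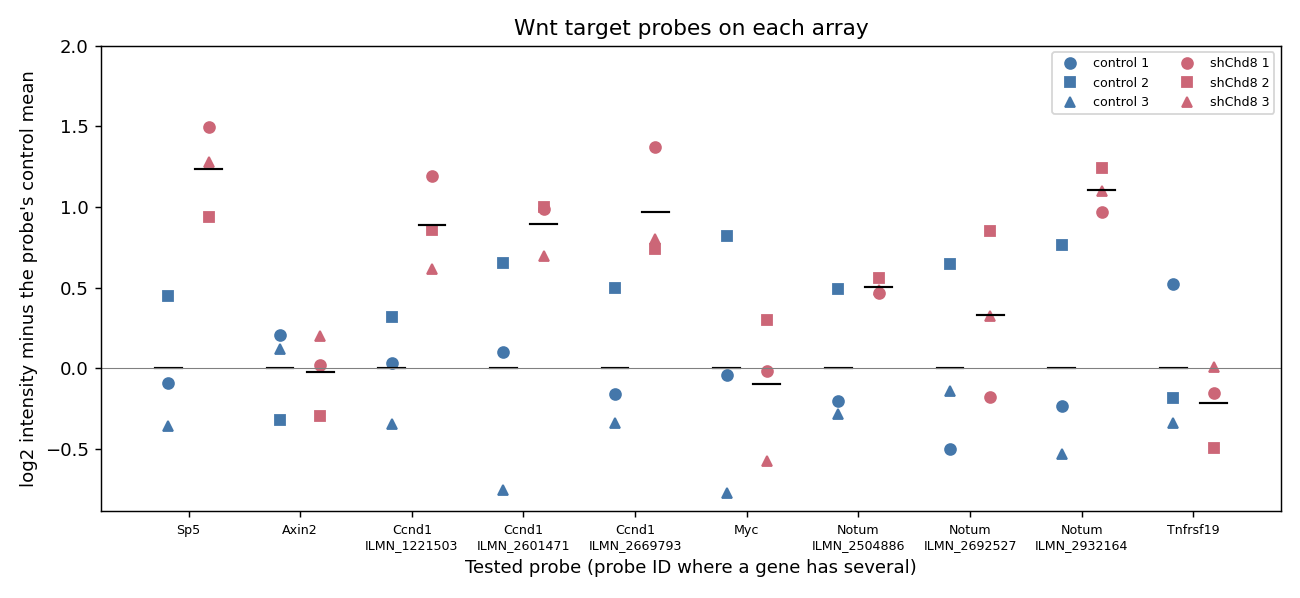
Each point is 1 array for 1 tested probe, as log2 intensity minus the mean of the control arrays for that probe, with a short line at each group mean. Sp5, the 3 Ccnd1 probes and Notum probe ILMN_2932164 have all shChd8 arrays above all control arrays, while Axin2, Myc, Tnfrsf19 and the other Notum probes overlap.

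Among the feedback inhibitors, Axin2 encodes a scaffold of the beta-catenin destruction complex and is the target most widely used as a readout of the pathway. Its probe (ILMN_2896314) read 7.51, 6.98 and 7.42 in control and 7.32, 7.01 and 7.50 in shChd8 replicates 1, 2 and 3. The groups overlapped fully, with the highest and the lowest value both in control arrays. The log2 change was -0.03 (SE 0.20, limma adjusted p = 0.952), and its 95% interval of -0.49 to 0.43 excludes a change of the size of that of Sp5 in either direction. Its sign turned in 5 of the 17 other settings, with values between -0.19 and 0.23. Settings that alter only the filter, the test or the probe per gene repeat the main value and could not turn it.

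Notum encodes a secreted enzyme that removes the lipid from Wnt ligands and so inactivates them. The Notum probe with the lowest p (ILMN_2932164) read 6.88, 7.88 and 6.58 in control and 8.08, 8.35 and 8.21 in shChd8 replicates 1, 2 and 3. The groups did not overlap on this probe, but control replicate 2 stood close to the shChd8 arrays and well above the other controls. The log2 change was 1.10 (SE 0.31, 95% interval 0.40 to 1.80, limma adjusted p = 0.0739), which did not pass the threshold. Without control replicate 2 it was 1.48 with a limma adjusted p of 0.0175, which leaving out the highest control favours. Without each other array in turn, the adjusted p lay between 0.116 and 0.197.

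On the other Notum probes the groups overlapped. Probe ILMN_2504886 was detected on 1 of 3 control and 3 of 3 shChd8 arrays, with 4.88, 5.58 and 4.80 in control against 5.56, 5.64 and 5.57 in shChd8 cells, and it entered the test mainly through the shChd8 arrays. Its log2 change was 0.50 (SE 0.22, limma adjusted p = 0.188). Probe ILMN_2692527 read 4.86, 6.00 and 5.21 in control and 5.18, 6.21 and 5.68 in shChd8 cells, with a log2 change of 0.33 (SE 0.34, adjusted p = 0.575). The 3 Notum probes thus had changes above 0 of different size.

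Nkd1, which encodes an inhibitor that binds Dishevelled, was at the limit of detection. Its probe ILMN_2696611 was detected on 0 of 3 control and 2 of 3 shChd8 arrays and read 5.06, 4.78 and 5.05 in control and 5.40, 4.67 and 5.04 in shChd8 cells. The other Nkd1 probe was detected on no array. Neither entered the test, and no fold is given.

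Ccnd1, which encodes cyclin D1 and drives the passage from G1 into S phase, was higher on all shChd8 arrays than on all control arrays on each of its 3 probes, though none was called. The groups did not overlap for 30.2% of all tested probes. Probe ILMN_1221503, with the lowest p of the 3, read 11.60, 11.89 and 11.23 in control and 12.77, 12.43 and 12.19 in shChd8 replicates 1, 2 and 3. Its log2 change was 0.89 (SE 0.22, 95% interval 0.39 to 1.39, limma adjusted p = 0.0593). Probe ILMN_2601471 read 11.40, 11.95 and 10.55 against 12.29, 12.30 and 11.99, and probe ILMN_2669793 read 8.26, 8.92 and 8.08 against 9.79, 9.16 and 9.22. Control replicate 2 was the highest and control replicate 3 the lowest control on all 3 probes. The log2 changes of these probes were 0.89 (SE 0.32, adjusted p = 0.129) and 0.97 (SE 0.26, adjusted p = 0.0693). Without control replicate 2, all 3 probes passed the threshold, with limma adjusted p values of 0.0443, 0.0458 and 0.0353. Leaving out the highest control favours this. None of the 3 passed without any other single array, with adjusted p values between 0.0567 and 0.287.

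Myc encodes a transcription factor of growth and proliferation and in mouse embryonic stem cells responds to LIF signalling as well. Its detected probe (ILMN_2623526) read 5.61, 6.47 and 4.88 in control and 5.63, 5.95 and 5.08 in shChd8 replicates 1, 2 and 3. The shChd8 arrays lay within the range of the control arrays, which was wide. The log2 change was -0.10 (SE 0.39, 95% interval -0.98 to 0.78, limma adjusted p = 0.902), so neither a fall nor a rise within this interval could be told from the spread between arrays. The other Myc probe was detected on no array.

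Lef1 encodes a TCF/LEF factor that is itself a target of the pathway. Of its 4 probes, 3 were detected on no array. Probe ILMN_2648475 was detected on 0 of 3 control arrays and 2 of 3 shChd8 arrays, and read 4.33, 4.32 and 4.44 in control and 5.08, 5.33 and 5.02 in shChd8 cells. All shChd8 arrays lay above all control arrays, and the groups did not overlap. The measured means were 4.36 and 5.14. No control array and not every shChd8 array detected the probe, so no fold is given. The probe was detected on too few arrays for the main test.

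The receptors among the members gave no call. Tnfrsf19, a receptor of the tumour necrosis factor family also known as Troy, read 6.84, 6.13 and 5.98 in control and 6.16, 5.82 and 6.32 in shChd8 replicates 1, 2 and 3 on its detected probe (ILMN_2793522). The groups overlapped, and the log2 change was -0.21 (SE 0.25, 95% interval -0.78 to 0.35, limma adjusted p = 0.627). Its other probe was detected on no array. Lgr5, the R-spondin receptor that marks intestinal stem cells, was detected on no array with either probe, and at this signal a change could not be measured.

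**Figure D3:**
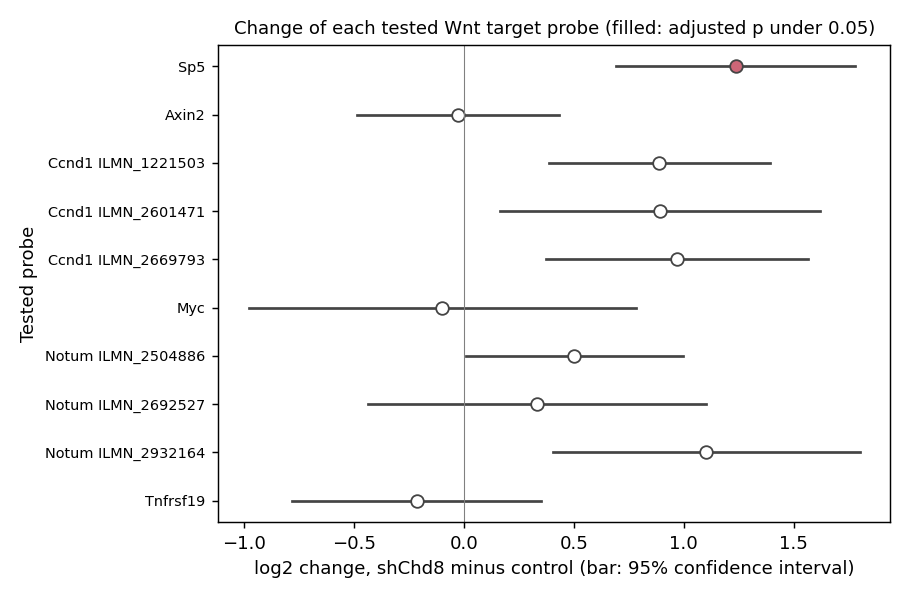
Log2 change of each tested probe (shChd8 minus control, 3 arrays each) with its 95% confidence interval from limma. The filled point is Sp5 at 1.24, the intervals of Axin2, Myc, Tnfrsf19 and Notum probe ILMN_2692527 include 0, and the other open points did not pass an adjusted p of 0.05.

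Of the 20 member probes, 10 entered the test, 8 were detected on no array and 2 on 2 arrays each. Among the 10 tested, 1 was called, beside 3.68% of all tested probes, and 7 had a log2 change above 0 and 3 below 0. At an unadjusted p under 0.05 there were 6, beside 25.7% of all tested probes. On 5 of the 10, all shChd8 arrays lay above all control arrays, beside 13.8% of all tested probes, and on 0 all shChd8 arrays lay below, beside 16.4%. These 5 probes belong to 3 genes (Sp5, Ccnd1 and Notum), and probes of a gene share their target. The median over the 6 tested genes was 0.43, between 3 genes at 0.89, 1.10 and 1.24 and 3 genes at -0.03, -0.10 and -0.21. The test could not take in Lef1, Nkd1 and Lgr5, and the filter admits a dim probe more readily when it is high in a group, so these counts describe the probes that passed and not the 10 genes.

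The control arrays differed among themselves in these genes. Control replicate 2 was the highest control on 8 of the 10 tested member probes, beside 35.2% of all tested probes, and control replicate 3 was the lowest on 8 of the 10, beside 33.3% of all. Axin2 and Tnfrsf19 were the 2 probes on which control replicate 1 was the highest. Limma called Sp5, Ccnd1 and Notum without control replicate 2, and 0 members without any other single array.

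The feeder markers were higher in shChd8 cells, the group in which Sp5 rose and in which Ccnd1 and Notum had higher values without a call. The median deviation of the 23 tested markers from their mean over arrays was -0.185, -0.341 and -0.997 on control arrays 1, 2 and 3 and 0.928, 0.557 and -0.130 on shChd8 arrays 1, 2 and 3, in log2 units. With the marker median as a covariate, the log2 change was 0.95 (SE 0.37) for Sp5, 0.84 (SE 0.49) for Notum probe ILMN_2932164 and 0.35 (SE 0.25) for Ccnd1 probe ILMN_1221503, against 1.24, 1.10 and 0.89 without it. The adjusted p values were 0.435, 0.583 and 0.666, and limma then called 0 of all 9711 genes (1781 probes had an unadjusted p under 0.05). Chd8 lost its call as well (adjusted p = 0.194). The marker medians did not overlap between the groups, so this fit cannot tell feeder marker level apart from group, and no conclusion is drawn from it. In bulk RNA, fewer or more cells of a type cannot be told apart from less or more RNA per cell.

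**Figure D4:**
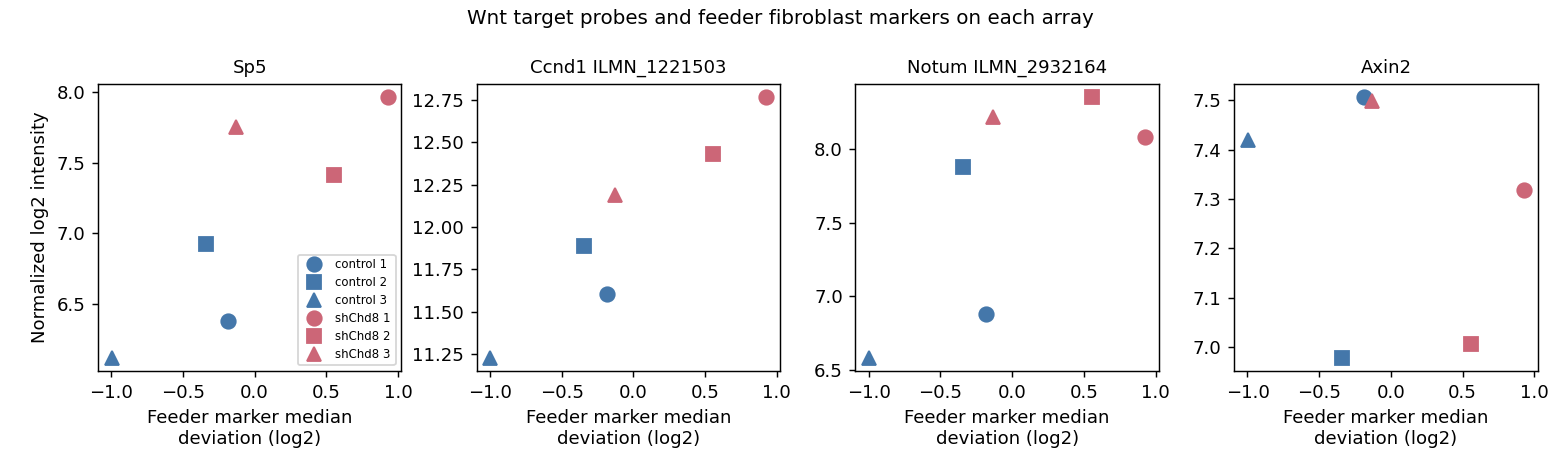
Each point is 1 array, with the median log2 deviation of 23 fibroblast markers on the horizontal axis and the normalized log2 intensity of a probe on the vertical axis, whose range differs between panels. The marker medians run from -0.997 to -0.185 on control arrays and from -0.130 to 0.928 on shChd8 arrays, the groups are apart on the vertical axis for Sp5, Ccnd1 and Notum, and they overlap for Axin2.

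The genes whose values followed Sp5 most closely over the 6 arrays were sought among the 9710 other tested genes. Both groups enter this measure, so it rests in part on the difference between them, and it is given as a description. The 5 genes with the highest Pearson correlation were Tmem185b (0.996), the circadian output factor Dbp (0.993), Vmp1, which encodes an autophagy protein of the endoplasmic reticulum (0.993), the golgin gene Golga5 (0.993) and the platelet chemokine gene Ppbp (0.990). Ppbp rose by 2.00 (SE 0.27, limma adjusted p = 0.0157). Vmp1 was called on 1 of its 3 tested probes. None of the control arrays detected that probe (mean log2 intensity 4.66), and shChd8 cells (mean 5.61) exceeded them at least 1.42-fold (limma adjusted p = 0.0467), whereas its other tested probes had log2 changes of 0.12 and 0.27. Dbp, Tmem185b and Golga5 had log2 changes of 0.68, 0.62 and 0.49 without a call. Among the members, the correlation with Sp5 was 0.949 for Ccnd1, 0.905 for Notum, 0.161 for Myc, -0.172 for Axin2 and -0.226 for Tnfrsf19.

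Of 26 further genes listed as Wnt/beta-catenin targets, 15 were tested and limma called 0, while 7 were higher and 0 lower by unadjusted p (under 0.05), beside 32.4% of all genes in either direction. Their median log2 change was 0.59, against -0.02 for all genes tested, and 11 of the 15 were above 0, against 48.6% of all genes. Ccnd2, the second of the D-type cyclins, read 7.03, 7.36 and 6.38 in control and 8.25, 7.68 and 8.01 in shChd8 replicates 1, 2 and 3 (probe ILMN_2700168). The groups did not overlap, as on each Ccnd1 probe, and the log2 change was 1.05 (SE 0.26, limma adjusted p = 0.061). The log2 change was 0.61 (adjusted p = 0.0653) for Ppard, a nuclear receptor of lipid metabolism, and 0.59 (adjusted p = 0.0748) for Tcf7l2, which encodes a TCF factor. The adhesion receptor Cd44, which fibroblasts also express, had 1.33 (SE 0.45, adjusted p = 0.114) with overlapping groups. These genes were also in the fit with the feeder covariate, which cannot tell feeder marker level apart from group, and their values from it are not given here.

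Of 40 genes of the pathway itself, 30 were tested, 1 rose and 1 fell, beside 5.17% of all genes called, and the median log2 change was -0.17. At an unadjusted p under 0.05, 3 were higher and 6 lower, beside 32.4% of all genes in either direction. Wls, which carries Wnt ligands to the cell surface for secretion, rose. Its called probe (ILMN_2704184) read 6.59, 6.91 and 6.58 in control and 8.10, 7.71 and 7.32 in shChd8 replicates 1, 2 and 3, with a log2 change of 1.02 (SE 0.22, limma adjusted p = 0.0445), and all 4 tested Wls probes, of which 1 was detected on no control array, were above 0, between 0.83 and 1.18. Sfrp1, which encodes a secreted protein that binds Wnt ligands, fell. Its called probe (ILMN_2604282) read 7.89, 7.95 and 8.14 in control and 7.20, 7.46 and 7.27 in shChd8 cells, with a log2 change of -0.68 (SE 0.15, adjusted p = 0.0499), and its other probe had -0.86 (adjusted p = 0.0606). Wls and Sfrp1 were also in the fit with the feeder covariate and lost their calls there. That fit cannot tell feeder marker level apart from group, and no conclusion is drawn from it.

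Fzd5, a Frizzled receptor, had a log2 change of -0.80 (SE 0.18, limma adjusted p = 0.0505) on 1 probe, while the other tested probes had -0.19 and 0.03. Tle4, a Groucho corepressor of TCF factors, had 0.84 (SE 0.20, adjusted p = 0.057) on 1 probe, detected on 1 of 3 control and 3 of 3 shChd8 arrays. The other Tle4 probes had 0.26 and 0.27. Ctnnb1, which encodes beta-catenin and is named here for that role rather than by its values, was called on 0 of its 4 tested probes by limma. The probe ILMN_2994460 read 12.19, 12.05 and 12.25 in control and 12.23, 12.46 and 12.42 in shChd8 cells, with a log2 change of 0.20 (SE 0.15, adjusted p = 0.426). The other Ctnnb1 probes had changes of 0.17, 0.13 and, on a probe detected on 3 of 6 arrays, -0.49.

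**Figure D5:**
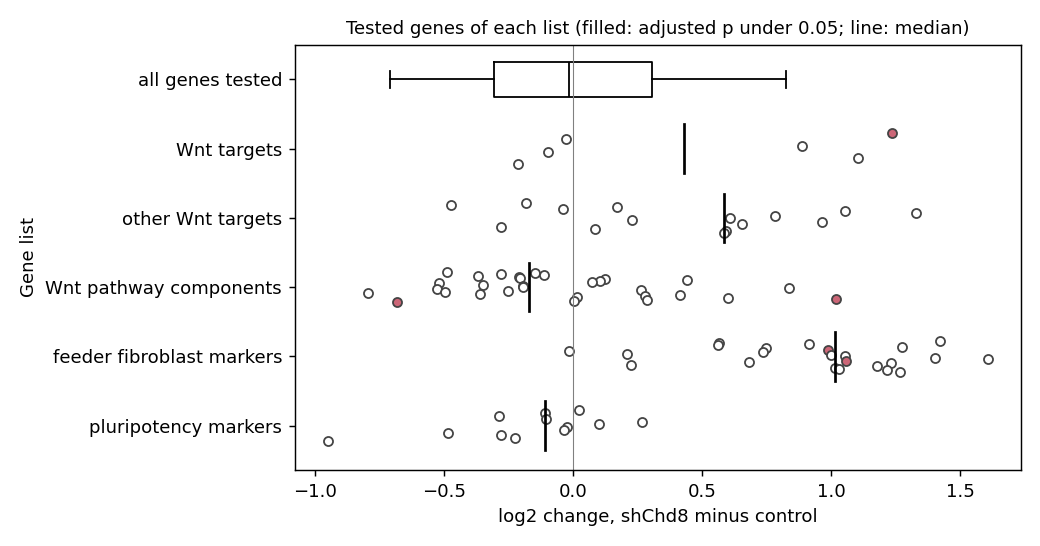
Log2 change (shChd8 minus control) of each tested gene of a list on its probe with the lowest p, with the list median as a line, and above them all 9711 genes as a box of quartiles with whiskers from the 5th to the 95th percentile. The Wnt target genes split into 3 from -0.21 to -0.03 and 3 from 0.89 to 1.24, the further targets have a median of 0.59 and the feeder markers of 1.02.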

How the data were processed

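RNA of 6 samples was hybridised to Illumina bead arrays, 1 array per sample. Per the file headers, the authors deposited non-normalized linear intensity for each probe with its detection p-value, and the submitters' processing notes name GenomeStudio. The deposited normalized intensity had the rank order of these values (lowest Spearman rho 1) and column medians of 112.1 to 112.2, as quantile normalization without background subtraction gives.

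Non-normalized intensity was background corrected and quantile normalized to log2 with neqc in limma 3.58.1 (R 4.3.3; offset 16, negative controls inferred from detection p-values). Probes with a detection p under 0.01 on at least 3 arrays entered a two-sided lmFit and eBayes fit of the group difference, with Benjamini-Hochberg adjustment over all 16732 probes and a threshold of 0.05. A gene takes the value of its probe with the lowest p. For a probe detected on no array of a group and on every array of the other, the fold is a bound against its own value or, if higher, the dimmest detected probe of the array. The fit was tested on simulated data.

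Symbols were updated through RefSeq gene identifiers (34807 probes matched; 34885 had 1 symbol, 18 several and 10378 none), and probes with several name no gene. Levels of different probes are not compared with each other. Named genes are Chd8, all members, of both further Wnt lists the called genes and the 4 with the lowest p, the 5 genes most like Sp5, and defining markers. The members and lists were chosen with earlier results of these data known. Endoderm and trophectoderm markers were listed as well: of 8 endoderm genes tested 1 fell (median 0.09), and of 6 trophectoderm genes tested limma called 0, against 3 lower at an unadjusted p under 0.05 (median -0.22), beside 5.17% of all genes called and 32.4% at that unadjusted p. Replicate numbers are in accession order. The number of arrays limits the precision. Alternatives covered background correction, normalization, the filter, the test, the probe per gene, a feeder covariate and each array left out.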

Additional observations from a re-analysis of the deposited data

How the results depend on the processing

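The log2 change of Sp5 was above 0 in all 17 other settings, from 0.74 to 1.49, which groups that do not overlap favour, and its call held in 9 of them. These settings are not independent checks. Those that alter only the filter, the test or the probe per gene repeat the main value of 1.24. With a single Sp5 probe, the choice of probe cannot alter the call either. It was lost without a filter (1.24, adjusted p = 0.0708), with an unmoderated test (1.24, adjusted p = 0.153) and under the feeder covariate (0.95, adjusted p = 0.435). With each array left out in turn it lay between 1.06 and 1.46, and the call held without control replicate 2. The size depended on background handling: it was 0.74 with no background correction and also on the normalized values the authors deposited, which are nearly the same processing. The call of Chd8 was also lost with the unmoderated test (-1.39, adjusted p = 0.061) and under the feeder covariate (-1.55, adjusted p = 0.194), and it held in the other settings run. Median scaling gave 1.49 for Sp5, where the median over all probes was 0.18.

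The number of member genes called was 2 (Sp5 and Ccnd1) with normexp without negative controls and with detection on all 6 arrays. It was 3 (Sp5, Ccnd1 and Notum) without background correction, with median scaling, on the deposited normalized values and with a mean-variance trend, and 0 with the unmoderated test and the feeder covariate. Without a filter Sp5 was not called, and the count of 1 came from a Lef1 probe. No control array and not every shChd8 array detected that probe, so no fold is given for it. Over the arrays left out in turn it lay between 0 and 3.

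Over all genes, 502 were called in the main analysis, 815 with normexp without negative controls, 1323 without background correction, 1326 with the deposited normalized values, 1303 with a trend, 833 with detection on all 6 arrays, 224 with detection on 1 array, 259 without a filter, 17 with the unmoderated test and 0 with the feeder covariate, where 1781 probes had an unadjusted p under 0.05. Median scaling called 1341, of which 1165 were higher and 176 lower, against 206 and 296 in the main analysis. Leaving out arrays gave 15 to 679. The split was 360 higher and 319 lower without control replicate 2.

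Of 167 member probe results under other settings, 10 turned in direction, all on probes with main changes of -0.03, -0.10 or -0.21, and the cause was not tested. The 167 include settings that alter only the filter, the test or the probe per gene. Those repeat the main change, so a direction could turn only in the rest. Median scaling gave 0.23 for Axin2, 0.046 for Myc and 0.0089 for Tnfrsf19. The feeder covariate gave 0.16 for Axin2. Without single arrays, Axin2 lay between -0.19 and 0.11, Myc between -0.49 and 0.32 and Tnfrsf19 between -0.39 and 0.049. With the feeder covariate Myc had -0.97 (SE 0.49, adjusted p = 0.527). The signal of 10 of the 20 member probes was too close to background for the test, and no change of Nkd1 or Lgr5 was measurable. No paired analysis was possible because the labels give no replicate numbers.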
